A study of Homo sapiens with 8 samples.

Results

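The AP-1 genes are 10 in number here: FOS, FOSB, FOSL1 and FOSL2 of the FOS family, JUN, JUNB and JUND of the JUN family, and ATF3, BATF and BATF3. They were chosen by name, as transcript clusters whose only gene symbol in the platform annotation is one of these. Each gene had exactly 1 such cluster, so all 10 were measured, among 18417 genes and 33297 clusters in all. The family was picked from a re-analysis in which FOS and JUN had already been seen to be higher with melphalan in both lines. The melphalan differences of the members are therefore descriptions, given with their SE and with counts of calls from which nothing is read. The tests concern the line, the inhibitors and, for the 8 other genes, the difference between the lines in the melphalan response. Those 8 genes are not independent of FOS and JUN. The members were chosen with earlier results known, and FOSB and ATF3 ran with FOS across the 8 arrays (Pearson r = 0.96 and 0.94).

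RNA was measured on 8 one-colour Affymetrix arrays, 1 per condition, so no condition was replicated. The cells were 2 human multiple myeloma lines, the parental U266/s and its melphalan-resistant derivative U266/LR7, collected 12 h after treatment. In each line, 1 array had negative control oligonucleotide without melphalan ("control"), 1 had 100 nM of inhibitors of miR-221 and miR-222, 1 had 100 µM melphalan, and 1 had melphalan and inhibitors at these concentrations. Melphalan is an alkylating drug that crosslinks DNA. The transfection tag of the melphalan-only arrays reads none, while the growth protocol reads as if a negative control was transfected, so melphalan against control and inhibitors within melphalan may also hold a transfection difference. The labels do not tell whether each array had a culture of its own. The p-values therefore cover the scatter that the fit left over among these 8 arrays, which may be technical. With 1 array per condition, that remainder also holds any change of the inhibitor difference with line or melphalan.

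The labelled cell type was checked on marker genes. Of 9 plasma cell marker genes, 5 lay above the upper quartile of genes on all 8 arrays and 0 below the lower quartile. With melphalan 5 of the 9 fell and 1 rose in U266/s, and 2 fell in U266/LR7 (limma). The marker counts here stand beside 18.4% of all genes called higher and 24.9% lower in U266/s. In U266/LR7 these shares were 3.02% and 3.61%. The range of signals was narrower on both U266/s melphalan arrays, with interquartile ranges over all clusters of 3.25 and 3.34 log2 units against 3.58 to 3.71 on the 6 others. Of the 7 myeloid marker genes, 4 rose with melphalan in U266/s and 1 in U266/LR7 (limma). Their mean signal was 5.92 and 6.13 without and 7.01 and 6.999 with melphalan in U266/s, and 6.11 and 6.31 without and 6.39 and 6.59 with melphalan in U266/LR7. CD68 (1.88), FCER1G (1.88), CD14 (1.47) and MPO (1.20) rose in U266/s, while CSF1R (-0.05), ITGAM (0.26) and LYZ (0.20) were not called, and 1 of the 7, LYZ, lay below the lower quartile on all 8 arrays. Among B cell, T and NK cell and stromal and epithelial markers, 1 of 4, 2 of 7 and 0 of 5 rose in U266/s, and 1 stromal or epithelial marker fell. The part of the narrower range, and of RNA from other cells, in the results below was not tested. In bulk RNA, a change in the share of cells and a change in RNA per cell cannot be told apart.

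AP-1 is a set of dimeric transcription factors. JUN proteins pair with each other, with FOS proteins or with ATF and BATF proteins through a leucine zipper, and the pair binds short palindromes through its basic region. FOS, FOSB, JUN, JUNB and ATF3 are early response genes, which are switched on within minutes of a signal without new protein synthesis, and whose short-lived transcripts are usually gone soon afterwards. JUN is phosphorylated by the JNK kinases under stress, including DNA damage, and it can act on its own promoter. BATF and BATF3 lack a transactivation domain and work with JUN proteins and IRF4 in lymphocytes.

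The promoters show which members carry AP-1 or CREB/ATF type sequences close to the start site. RefSeq (GRCh38.p14) held 9 promoter windows for 8 members, each with 250 bases before and 50 after a start site. FOSL1 and BATF3 were not matched. Searched on both strands, with any base at N, were TGANTCA (which covers the AP-1 site), TGACNTCA and TGACGT. TGACNTCA covers the CREB/ATF site TGACGTCA, its variant TGACATCA and the forms with another base at N. TGACGT is the core of the CREB site and overlaps TGACGTCA. Of all 35116 windows, 7.71% held TGANTCA, 7.72% TGACNTCA and 7.98% TGACGT. The stretches below run 5′ to 3′ on the gene's strand, with the matches in capitals, and are shown because these 6 genes had the matches.
FOS, chr14:75278728-75278827, plus strand: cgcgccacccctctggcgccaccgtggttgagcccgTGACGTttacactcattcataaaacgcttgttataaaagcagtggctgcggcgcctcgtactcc
FOSB, chr19:45467896-45467995, plus strand: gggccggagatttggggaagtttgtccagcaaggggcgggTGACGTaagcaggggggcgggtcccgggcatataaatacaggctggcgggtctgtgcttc
FOSL2, chr2:28392758-28392857, plus strand: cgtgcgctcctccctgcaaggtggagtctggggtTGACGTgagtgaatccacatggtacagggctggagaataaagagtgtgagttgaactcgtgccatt
JUN, chr1:58784048-58784147, minus strand: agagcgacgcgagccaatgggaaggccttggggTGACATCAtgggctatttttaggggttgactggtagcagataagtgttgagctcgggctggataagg
JUND, chr19:18281623-18281722, minus strand: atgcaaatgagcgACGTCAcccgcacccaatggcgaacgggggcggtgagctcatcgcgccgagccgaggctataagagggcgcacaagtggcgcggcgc
ATF3, chr1:212565254-212565353, plus strand: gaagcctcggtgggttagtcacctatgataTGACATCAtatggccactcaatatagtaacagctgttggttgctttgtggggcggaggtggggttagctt
TGACGT began at -64 in FOS, -60 in FOSB and -66 in FOSL2, counted back from the start site, so the 3 FOS family genes had the same letters at nearly the same distance. JUN had TGACATCA at -67. JUND had TGACGTCA at -200, outside the printed stretch, and ACGTCA, the reverse complement of TGACGT, at -87. FOSL2 also had TGACTCA from base 5 after its start. ATF3 had TGACATCA at -123 in 1 of its 2 windows, and no match was found in the other window or in those of JUNB and BATF. A match is a description of the letters and says nothing about binding in these cells.

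With melphalan, FOS, FOSB, JUN, JUNB, JUND, ATF3 and FOSL2 were higher in both lines, FOSL1 was higher in U266/s (0.52) and near 0 in U266/LR7 (-0.04), and BATF and BATF3 stayed within 0.10 log2 units of no difference. FOS was 6.84-fold higher in U266/s and 2.22-fold higher in U266/LR7, and JUN 4.57-fold and 2.25-fold. In the unreplicated design, errors come from a limma fit that shares all 8 arrays. In U266/s 8 of 10 members were called higher (adjusted p under 0.05 over all genes), where 18.4% of all genes were called higher and 24.9% lower. In U266/LR7 it was 5 of 10, where 3.02% of all genes were called higher and 3.61% lower. In each line 0 members were called lower, and 0 were lower at an unadjusted p under 0.05. The members' median difference was 1.09 in U266/s and 0.65 in U266/LR7, against 0.08 and 0.05 over all genes. Since the family was chosen on these differences, nothing is read from the counts.

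**Figure D1:**
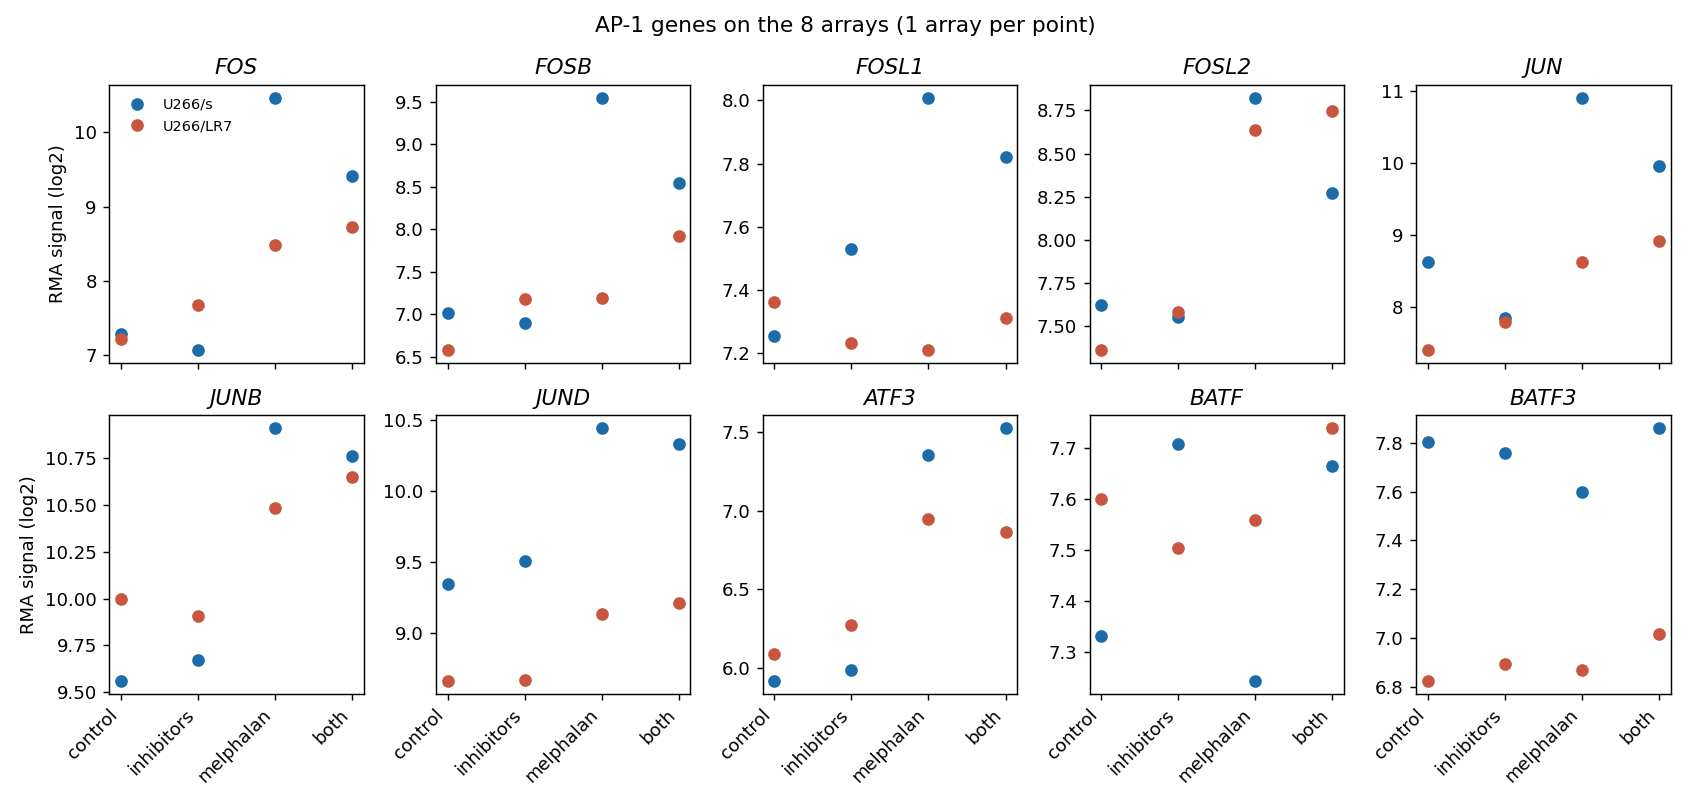
Signal (log2 RMA units) of each AP-1 gene on the 8 arrays, 1 point per array, by treatment (control, inhibitors, melphalan, both) and line; each panel has its own scale. FOS reached 10.47 on the U266/s melphalan array and 8.72 at most in U266/LR7, while BATF3 was higher in U266/s under every treatment.

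FOS, which forms the classical AP-1 dimer with JUN, had signals of 7.28 and 7.06 in U266/s without melphalan (control, inhibitors) and 10.47 and 9.42 with it (melphalan, both). In U266/LR7 it was 7.22 and 7.68 without and 8.48 and 8.72 with melphalan. In each line the arrays with melphalan were above those without, and both U266/s melphalan arrays were above both of U266/LR7. The melphalan difference was 2.77 ± 0.28 log2 units (SE) in U266/s and 1.15 ± 0.28 in U266/LR7, and the former subtracted from the latter gave -1.62 ± 0.40.

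FOSB, a FOS relative with a similar early response, was at 7.01 and 6.90 in U266/s without melphalan and 9.55 and 8.55 with it. In U266/LR7 it was at 6.57 and 7.18 without and 7.18 and 7.92 with melphalan. There the melphalan array and the inhibitor array had the same signal to 2 decimals, so the groups were barely separated, whereas in U266/s both melphalan arrays stood clear of both others. The difference was 2.09 ± 0.32 in U266/s and 0.68 ± 0.32 in U266/LR7.

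FOSL1 and FOSL2 encode FRA1 and FRA2, FOS relatives without the transactivating end of FOS. FOSL1 signals were 7.25, 7.53, 8.01 and 7.82 in U266/s (control, inhibitors, melphalan, both) and 7.36, 7.23, 7.21 and 7.31 in U266/LR7. Only in U266/s did the melphalan arrays stand above the others, by 0.52 ± 0.15, against -0.04 ± 0.15 in U266/LR7. The FOSL1 difference in U266/s was no longer called when the U266/s control (0.35) or the U266/s melphalan array (0.39) was left out. The same held with median centring (0.37), cyclic loess (0.36), the additive fit (0.24) and transfection as 3 levels (0.46).
FOSL2 was at 7.62, 7.55, 8.82 and 8.27 in U266/s and at 7.36, 7.58, 8.64 and 8.75 in U266/LR7. Its differences were 0.96 ± 0.19 and 1.22 ± 0.19, and FOSL2 was the 1 member among the 8 raised in U266/s whose difference was larger in U266/LR7. In U266/LR7 its difference ranked 16th from the top among all genes, and in U266/s 424th.

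JUN had 8.63 and 7.86 without and 10.91 and 9.97 with melphalan in U266/s. In U266/LR7 the signals were 7.40 and 7.80 without and 8.63 and 8.92 with melphalan. The U266/LR7 melphalan array thus reached the level of the untreated U266/s control. The differences were 2.19 ± 0.29 and 1.17 ± 0.29, and U266/LR7 differed from U266/s by -1.02 ± 0.41 in this response.

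JUNB and JUND encode the other JUN proteins, JUNB being inducible and JUND usually expressed steadily. JUNB signals were 9.56, 9.67, 10.91 and 10.77 in U266/s (control, inhibitors, melphalan, both) and 9.9995, 9.91, 10.48 and 10.65 in U266/LR7. It differed by 1.22 ± 0.14 in U266/s and 0.61 ± 0.14 in U266/LR7. U266/LR7 started above and ended below U266/s.
JUND signals were 9.35, 9.51, 10.44 and 10.33 in U266/s and 8.67, 8.67, 9.14 and 9.22 in U266/LR7. All 4 U266/s arrays were above all 4 of U266/LR7. The melphalan differences were 0.96 ± 0.14 and 0.51 ± 0.14.

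ATF3, a stress-induced factor that mostly represses its targets as a homodimer and pairs with JUN, had 5.92 and 5.99 without and 7.35 and 7.52 with melphalan in U266/s. In U266/LR7 it had 6.09 and 6.27 without and 6.95 and 6.86 with melphalan. The groups did not overlap in either line, and the pairs agreed more closely than those of FOS or JUN. The differences were 1.48 ± 0.14 and 0.73 ± 0.14.
BATF and BATF3 lay apart from the rest. BATF was between 7.24 and 7.74 on all 8 arrays, with differences of -0.07 ± 0.16 in U266/s and 0.10 ± 0.16 in U266/LR7. BATF3 differed by -0.05 ± 0.14 and 0.08 ± 0.14. No member lay below the lower quartile of genes on any array. ATF3 was only just above it in U266/s without melphalan (5.92 and 5.99, against quartiles of 5.89 and 5.98). It was below the median of genes on 6 of the 8 arrays.

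**Figure D2:**
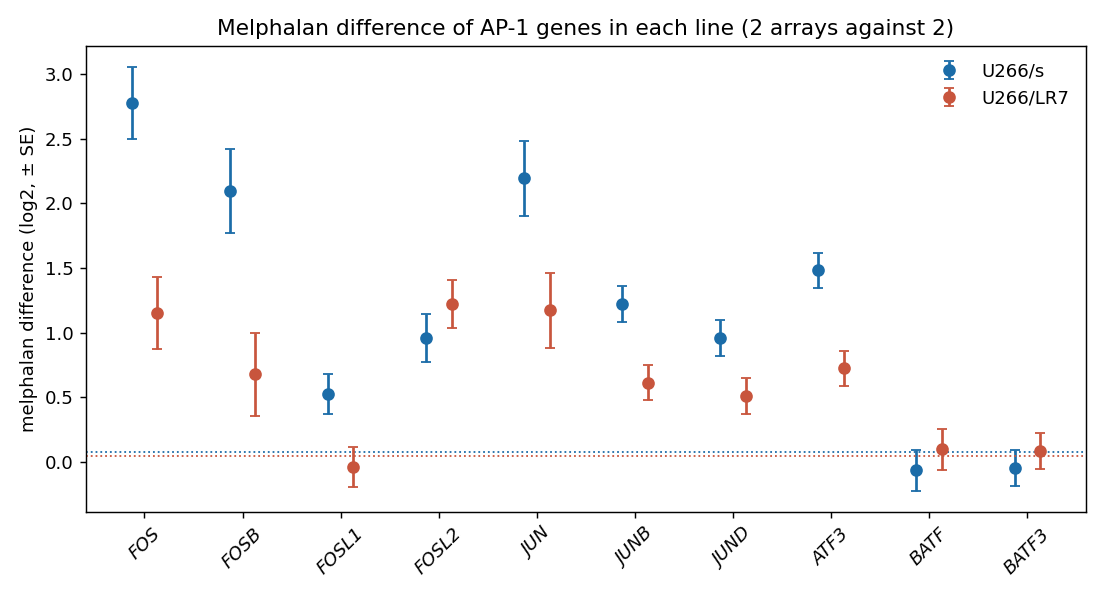
Melphalan difference (log2, points with bars of 1 SE from the limma fit) of each AP-1 gene in U266/s and U266/LR7, 2 arrays against 2; dotted lines mark the median of all genes. FOS, FOSB and JUN have the largest U266/s differences (2.77, 2.09 and 2.19), and FOSL2 alone of the raised genes lies higher in U266/LR7.

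The share of all genes called higher in U266/LR7 was below the 3.02% of the main fit in each alternative of this paragraph. Leaving out single arrays also changed the U266/LR7 count of 5 called members. It was 0 without the U266/LR7 array with both agents, where 6 members had an unadjusted p under 0.05 in limma. Dropping the melphalan array of U266/LR7 gave 2, and dropping the control of U266/LR7, the control of U266/s or the inhibitor array of U266/s gave 3. The share of all genes called higher in U266/s changed between these fits as well, so nothing is read from the U266/s count of members. With transfection coded as 3 levels, as the tags give it, 7 members were called in U266/s and 1 in U266/LR7. Centring each array on its median left 7 and 4 members called, while the share of all genes called higher was 9.06% in U266/s and 2.03% in U266/LR7.

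The melphalan response of ATF3, FOSB and JUNB was smaller in U266/LR7 than in U266/s, by a test of the difference itself. The interaction was -0.76 ± 0.19 for ATF3 (limma, adjusted p = 0.0143), -1.42 ± 0.46 for FOSB (adjusted p = 0.0429) and -0.61 ± 0.19 for JUNB (adjusted p = 0.0412). JUND (-0.45, 95% interval -0.88 to -0.01, adjusted p = 0.128) and FOSL1 (-0.56, -1.04 to -0.08, adjusted p = 0.0880) did not pass. FOSL2 ran the other way (0.26, -0.31 to 0.84, adjusted p = 0.506). BATF (0.16, -0.33 to 0.66) and BATF3 (0.13, -0.30 to 0.57) had adjusted p-values of 0.643 and 0.673. Of the 8 genes tested, 3 had called lower responses in U266/LR7 and 0 higher ones, where 5.99% and 17.9% of all genes were called in these directions.
These calls depended on single arrays. In each alternative with a count below, the share of all genes called lower was also under the 5.99% of the main fit. Without the U266/s control array 0 of the 8 were called (limma), with 2 at an unadjusted p under 0.05. The count was 1 when any single one of 4 other arrays was left out, namely U266/LR7 with melphalan, U266/LR7 with both agents, U266/s with melphalan and U266/s with inhibitors. Median centring and cyclic loess also left 1 each. Over the 16 alternatives with a value, the adjusted p of JUNB ranged from 0.0239 to 0.241 and that of FOSB from 0.00208 to 0.198; over 15 alternatives that of ATF3 ranged from 0.0141 to 0.107.

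Without melphalan, JUND and BATF3 were lower in U266/LR7 than in U266/s, and the other 8 members were not called. BATF3, a factor needed for a class of dendritic cells and also expressed in some lymphoid tumours, was at 6.82 and 6.89 in U266/LR7 (control, inhibitors) and at 7.80 and 7.76 in U266/s. The difference was -0.92 ± 0.14 (limma, adjusted p = 0.000306), and with melphalan the signals were 6.87 and 7.02 against 7.60 and 7.86. JUND differed by -0.76 ± 0.14 (limma, adjusted p = 0.00117), with -0.68 between the control arrays and -0.84 between the inhibitor arrays. Both calls held without each single array, with adjusted p-values of at most 0.0304 and 0.00731 for JUND and BATF3 over all alternatives that measured them. Yet 2 of 10 is close to the background, since 17.8% of all genes were called lower in U266/LR7 and 16.9% higher.
JUN differed by -0.64 ± 0.29 (limma, adjusted p = 0.116). The pair of control arrays differed by -1.23 and the pair of inhibitor arrays by -0.06, so the pairs did not agree in size. The value was -1.08 and called when the U266/LR7 inhibitor array was left out (adjusted p = 0.0184), -0.21 when the U266/LR7 control was left out and -0.30 when the U266/s control was left out. It was also called in the additive fit (-1.15, adjusted p = 0.0238) and with all pairwise interactions (adjusted p = 0.00828). JUNB stood at 0.34 ± 0.14 (adjusted p = 0.0826). FOS (0.28), ATF3 (0.23), BATF (0.03), FOSB (-0.08), FOSL1 (-0.10) and FOSL2 (-0.12) had adjusted p-values from 0.241 to 0.910. The 95% interval for FOS ran from -0.34 to 0.89.

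MicroRNAs miR-221 and miR-222, which the inhibitors target, are encoded side by side and share their seed, the part that pairs with target transcripts. The seed (bases 2 to 8) is in capitals in the mature sequences from RefSeq (GRCh38.p14), both encoded on the minus strand of chromosome X.
hsa-miR-221-3p, chrX:45746180-45746202: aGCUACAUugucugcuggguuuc
hsa-miR-222-3p, chrX:45747036-45747056: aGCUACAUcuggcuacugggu
Over the 4 matched pairs with and without inhibitors, 0 of 10 members were called in either direction (limma), and 0 had an unadjusted p under 0.05. Among all genes 0.0271% were called higher and 0.0163% lower. FOS stood at -0.14 ± 0.20 (95% interval -0.58 to 0.29, adjusted p = 0.935). The largest values were JUN at -0.26 ± 0.21 and BATF at 0.22 ± 0.11 (adjusted p = 0.886 and 0.821).

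In the single pairs behind these averages, FOS, FOSB, JUN and FOSL2 had opposite signs in the lines. In U266/s, FOS with inhibitors differed by -0.22 without melphalan and by -1.05 with it, and in U266/LR7 by 0.46 and 0.24. FOSB had -0.11 and -1.01 in U266/s against 0.61 and 0.74 in U266/LR7. JUN had -0.77 and -0.95 against 0.40 and 0.30. FOSL2 had -0.07 and -0.55 against 0.23 and 0.11. Each of the 4 genes was lower in both U266/s pairs and higher in both U266/LR7 pairs. The share of all genes with this pattern of signs was not counted, so nothing is read from the 4 members. Within the middle 80% of all genes given below lay FOS (-0.22), FOSB (-0.11) and FOSL2 (-0.07) in U266/s without melphalan. Both FOSL2 values in U266/LR7 (0.23 and 0.11) lay there too. BATF had 0.38 and 0.42 in U266/s and -0.10 and 0.18 in U266/LR7. JUNB, JUND, ATF3, FOSL1 and BATF3 stayed between -0.19 and 0.28 in every pair.
The middle 80% of all genes lay between -0.29 and 0.28 in the U266/s pair without melphalan and between -0.35 and 0.34 in the pair with it. For U266/LR7 these limits were -0.32 and 0.37 without and -0.22 and 0.20 with melphalan.

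A test of this difference, chosen after these values were seen, added an inhibitors by line term to the fit, which left 2 residual degrees of freedom. The term was 1.21 ± 0.20 for JUN (limma, adjusted p = 0.348), 1.24 ± 0.28 for FOSB (adjusted p = 0.886) and 0.98 ± 0.28 for FOS (adjusted p = 0.886). For FOSL2 it was 0.48 ± 0.22 (adjusted p = 0.886). Of 18417 genes 0 passed, and 3 of 10 members had an unadjusted p under 0.05. The opposite differences were therefore not called. In the main fit, which has no such term, they are part of the residual behind the SE of these genes. For JUN the SE of the melphalan difference in U266/s was 0.29 in the main fit and 0.16 with all pairwise interactions. In both lines the pair with melphalan may also differ by transfection, and that part was not tested.

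**Figure D3:**
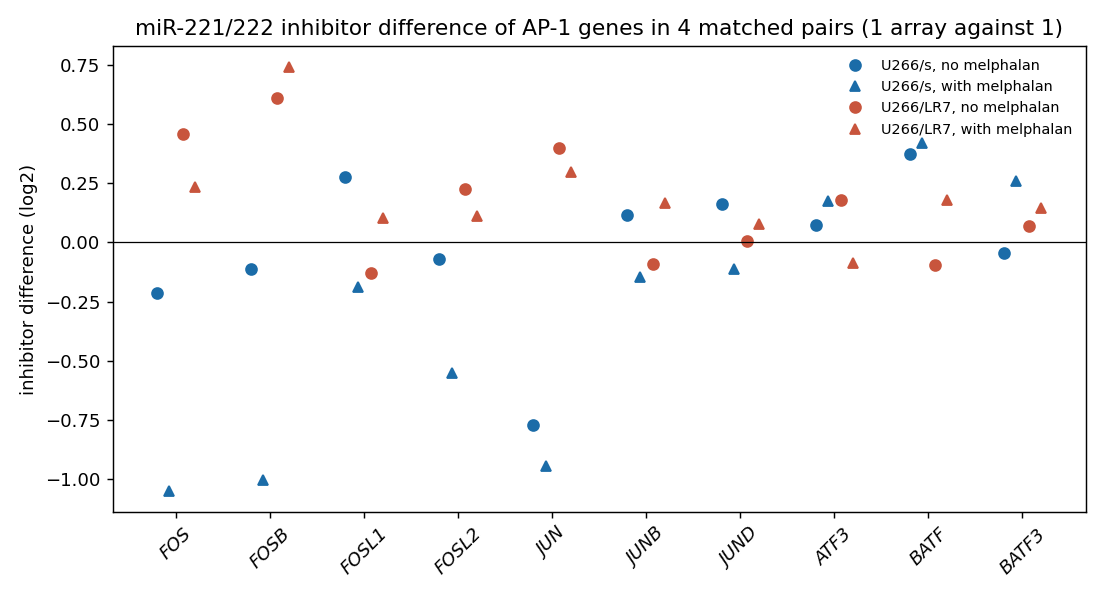
Inhibitor difference (log2, with minus without inhibitors) of each AP-1 gene in 4 matched pairs, each 1 array against 1, so no error bars can be drawn. FOS, FOSB, JUN and FOSL2 are below 0 in both U266/s pairs and above 0 in both U266/LR7 pairs, while ATF3 and JUNB stay near 0.

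Across the 8 arrays FOS ran most closely with FOSB (Pearson r = 0.96), ATF3 (0.94), JUN (0.94) and JUNB (0.93), less with FOSL2 (0.85), JUND (0.76) and FOSL1 (0.73), and not with BATF (-0.30) or BATF3 (0.20). These values describe 8 arrays that share line and treatment. Among the 4664 genes whose SD over the arrays was at least 0.5, the 5 nearest to FOS were TBCC (r = 0.98), IER3 (0.98), DRC5 (0.98), GCC1 (0.97) and GADD45B (0.97). IER3 is another early response gene, and GADD45B a stress-induced gene of the GADD45 family. IER3 signal was 7.66 in the U266/s control, 10.22 with melphalan and 9.37 with both agents, against 7.55, 8.33 and 8.81 in U266/LR7. It thus had the highest point on the U266/s melphalan array, as FOS did.
Nearest to JUN were GADD45B (0.99), GCC1 (0.97), NHLH1 (0.97), SNORA65 (0.97) and FOSB (0.96). Nearest to ATF3 were FLJ13224 (0.98), EFCAB12 (0.98), IDI2 (0.97), HEXIM1 (0.97) and PNLDC1 (0.97). None of the 5 was shared between ATF3 and FOS or JUN, whereas GADD45B and GCC1 were near both FOS and JUN.

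The genes around AP-1 are given by list, to be read beside the shares of all genes called with melphalan, 18.4% higher and 24.9% lower in U266/s and 3.02% higher and 3.61% lower in U266/LR7. Of 8 measured kinases upstream of AP-1, 5 fell and 1 rose with melphalan in U266/s, and 1 fell in U266/LR7. MAP3K1, which activates the JNK cascade, fell by 1.30, MAPK8, which encodes JNK1, by 1.22 and MAP3K5, which encodes ASK1, by 1.22. In U266/LR7 MAP3K5 fell by 0.91, and MAPK8 had -0.45 ± 0.19 (limma, adjusted p = 0.208). MAP3K1 was the 1 kinase called for a different response between the lines (1.28). For that interaction 17.9% of all genes were called higher and 5.99% lower. MAP3K5 (0.93) and MAP2K4 (0.76), a kinase that activates JNK, were higher in U266/LR7 without melphalan, where 16.9% of all genes were called higher and 17.8% lower.
Of 8 factors that act at FOS and JUN promoters, 5 fell and 2 rose in U266/s and 1 fell in U266/LR7. CREB1, which binds the CREB site, fell by 1.64 in U266/s and had a difference of +0.07 in U266/LR7 (interaction 1.70 ± 0.21, limma adjusted p = 0.000287). MEF2C fell by 1.60 and 1.26 in the lines, and MEF2A by 0.88 in U266/s. SRF, which drives FOS through its serum response element, differed by -1.15 in U266/LR7 from U266/s without melphalan (adjusted p = 3.29e-05).
Of 13 other leucine zipper partners, 4 rose and 5 fell in U266/s, and 1 rose in U266/LR7. NFIL3, a repressor, fell by 1.82, DDIT3, which encodes the stress factor CHOP, rose by 1.41 and MAFG, a small MAF protein, by 1.01. In U266/LR7 MAFG rose by 0.62, and DDIT3 had 0.23 (interaction -1.18 ± 0.24, limma adjusted p = 0.00498). MAF, a myeloma oncogene of the same class, differed by -2.04 in U266/LR7 from U266/s without melphalan. IRF4, the partner of BATF in lymphocytes, fell by 0.46 in U266/s and 0.50 in U266/LR7, while IRF8 was not called in either. IRF8 differed by -0.95 in U266/LR7 from U266/s without melphalan. Its signals (control, inhibitors) were 5.77 and 5.53 against 7.08 and 6.13, so the pairs differed in size.

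Of the 4 genes that turn over JUN and FOS protein, all 4 fell in U266/s and 3 in U266/LR7. COP1, a ubiquitin ligase for JUN, fell by 1.28 and 1.39, and FBXW7, which recognises phosphorylated JUN, by 1.12 and 0.78. ITCH fell by 1.13 in U266/s, and DET1, which works with COP1, fell by 0.85 in U266/LR7. Among all genes 24.9% and 3.61% were called lower in these comparisons.
Of 17 measured AP-1 target genes, 9 rose and 2 fell in U266/s, and 2 rose in U266/LR7. The list's median was 0.41 and 0.09, against 0.08 and 0.05 over all genes. GADD45B rose by 1.27 and SPP1, which encodes osteopontin, by 1.13 in U266/s, whereas IL6, a growth factor of myeloma cells, fell by 1.25. In U266/LR7 DUSP1, a phosphatase that switches off MAP kinases, rose by 0.89 and HMOX1, haem oxygenase, by 0.72. IL6 (1.63), CD44 (1.38) and CCND1 (1.24) were higher in U266/LR7 without melphalan, where 5 of the 17 were higher and 4 lower, and 16.9% and 17.8% of all genes. The response of 4 targets was lower in U266/LR7 and that of 1 higher, where 5.99% and 17.9% of all genes were called in these directions. The values were -1.54 for CCND1, which encodes cyclin D1, -1.27 for SPP1 and 0.87 for IL6. SPP1 lay below the lower quartile of genes on every U266/LR7 array, at 5.09 to 5.34 against quartiles of 5.81 to 5.86. With the inhibitors, 0 of the 52 genes in the 6 lists were called (limma), and 7 had an unadjusted p under 0.05. Among all genes only 0.0271% were called higher and 0.0163% lower, so nothing is read from these counts. The 9 targets and the 4 myeloid markers called higher in U266/s rest on the same 2 melphalan arrays, which had the narrower range of signals, and the part of the range or of those markers in these counts was not tested.

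**Figure D4:**
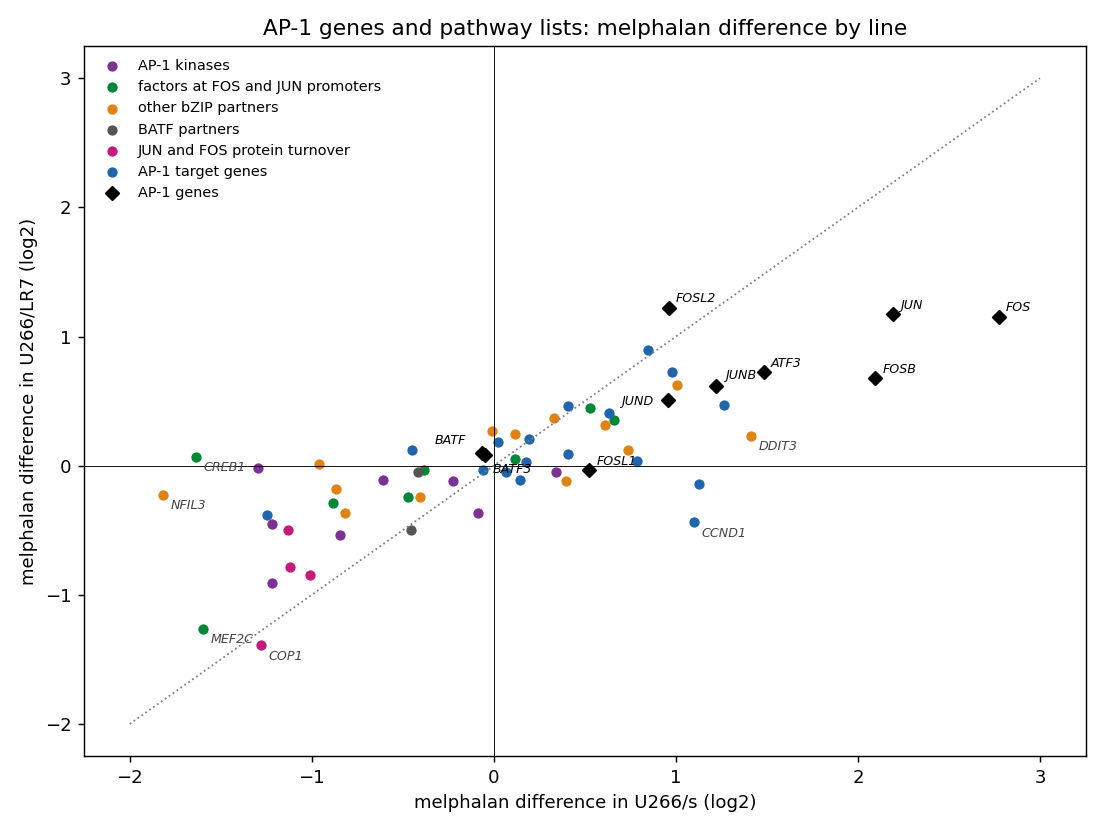
Melphalan difference (log2) in U266/s against that in U266/LR7 for the AP-1 genes (black diamonds, named) and the measured genes of 6 pathway lists (coloured points, some named); the dotted line marks equal differences and the axes cross at 0. FOS, FOSB, JUN, JUNB and ATF3 lie below the line of equal differences and FOSL2 above it, while CREB1 and NFIL3 lie far to the negative side in U266/s (-1.64 and -1.82) and near 0 in U266/LR7 (0.07 and -0.23).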

How the data were processed

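Total RNA of 8 samples was hybridised to Affymetrix arrays. The authors deposited log2 values made with Affymetrix Expression Console and RMA, per the submitters' processing notes. Their versions and any settings were not given in the sources used here. Clusters with 1 symbol in the platform annotation were named through their gene ID, and the brightest cluster stood for a gene. The members and lists were chosen with earlier results of these data known. The genes named are all members, the 5 genes most like FOS, JUN and ATF3, and up to 3 genes of each list with the largest called differences in a comparison, whose values in other comparisons are also given where not called. All 7 myeloid markers were named after their values were seen.

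All 18417 genes were fitted with limma 3.58.1 in R 4.3.3 (line, melphalan, inhibitors and melphalan by line, 3 residual degrees of freedom, empirical Bayes with an intensity trend, Benjamini-Hochberg adjustment over all genes at 0.05). The fit was tested on simulated data. Alternatives changed the model terms, variance prior, normalization, low-signal filter, cluster rule, transfection coding and arrays, 1 at a time. The number of arrays limits the precision.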

Additional observations from a re-analysis of the deposited data

Results flagged for a closer look

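The melphalan response was called different between the lines for 3 of the 8 members tested, by the interaction term in limma. Among all genes 5.99% were called lower and 17.9% higher in this interaction. U266/LR7 minus U266/s was -1.42 for FOSB, -0.61 for JUNB and -0.76 for ATF3. Each ran below 0 in all alternatives with a value, but the calls were lost without several single arrays, as given above. No group held enough arrays to look for outliers.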

How the results depend on the processing

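The count of called members kept within 1.5 times under most alternatives. The share of all genes called changed between the alternatives too, so nothing is read from the member counts. For melphalan in U266/LR7, 1.82% of genes were called higher with cyclic loess and 1.17% with transfection as 3 levels. For the interaction, 3.7% were called lower with median centring and 5.16% with cyclic loess. For the line, 24.1% were called lower among genes above the median signal. The melphalan count in U266/LR7 was 3 with cyclic loess and 1 with transfection as 3 levels, where melphalan rests on the pairs with inhibitors, and the 8 fits without 1 array gave 0 to 5. The interaction count over all 10 members, FOS and JUN included, was 2 with median centring and 2 with cyclic loess, and 0 to 4 without 1 array. The line count was 1 among genes above the median signal, where ATF3 and BATF3 were not tested, and 2 to 3 without 1 array. The melphalan count in U266/s was 7 to 8 and the inhibitor count 0 to 0 without 1 array. The inhibitor count was also 0 with a melphalan by inhibitors term, which equals the 3-level fit. The additive fit gives no interaction. There 6 members were called higher for melphalan and 3 lower for the line, where 1.37% and 15.5% of all genes were called in these directions. Median centring moved the median melphalan difference of all genes in U266/s from 0.08 to -0.07, and cyclic loess to -0.09. No called difference of a member changed sign. No paired analysis was possible because the conditions share fewer than 2 replicate numbers, and the pairs used above match arrays on line and treatment only.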
